A study of Mus musculus with 653 samples.

Results

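Mesenchymal cells caught in a sort of E10.5 (embryonic day) mouse liver for Lgr5-GFP were split by how many reads of Lgr5 itself they gave, and the 2 ends of that split were compared across all genes. The members were chosen by their reads of Lgr5 and of the genes named next, so the values of these genes are a description. A cell was taken as mesenchymal when it had more than 10 reads on at least 2 of the 4 genes Pdgfra, Col1a1, Col1a2 and Col3a1 and at most 10 reads of each of Afp, a hepatoblast gene, and Klf1, an erythroid gene. Of the E10.5 Lgr5-GFP cells, 96 met the rule, which is 45.5% of the sort (95% exact binomial interval 38.6 to 52.5%). Of these 96 cells, 25 had more than 10 Lgr5 reads and are called Lgr5-high, 51 had 0 and are called Lgr5-zero, and 20 had 1 to 10 and lie in between. The comparison therefore rests on 76 of the 653 cells of the series.

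The cells came from embryos whose fathers were Lgr5-EGFP-IRES-creERT2 mice (C57BL/6) and whose mothers were MF1. This allele places EGFP at the Lgr5 locus, and both groups carry it. Livers were dissociated and cells were sorted as Liv2+, CD31-, CD45- and GFP+, where Liv2 is a surface antigen of hepatoblasts, CD31 marks endothelium and CD45 marks leukocytes. A bulk sort without the GFP gate was made at the same stage, and each cell was sequenced as its own Smart-seq2 library. No treatment was given, and the labels name neither embryo nor litter, so each group stands as 1 sample, no p-value was computed, and every interval below covers counting error only.

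Lgr5 is a receptor for R-spondins, secreted proteins that keep Frizzled receptors on the cell surface by holding off the E3 ligases Znrf3 and Rnf43 and so raise the response of a cell to Wnt ligands. It is also known as a target gene of the same pathway in several stem cell compartments. The liver bud of this stage grows into the mesenchyme of the septum transversum, whose surface is covered by mesothelium. Both give rise to stellate cells, and neighbouring mesenchyme belongs to the body wall, gut and limb.

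The count of Lgr5 reads, which made the groups, ran from 11 to 351 per Lgr5-high cell, with a median level of 123.1 reads per 1000000 reads of the cell. The 3 lowest Lgr5-high cells had 11, 13 and 21 reads, and the 3 highest cells in between had 4, 5 and 7, so no cell lay just below the limit. Lgr5-zero cells had 0 reads at a median depth of 1226999 reads per cell, which allows up to 3 reads in each. All 25 Lgr5-high cells and 42 of 51 Lgr5-zero cells had more than 10 reads of Col3a1, and Col1a1 was present in this sense in 22 and 41 cells. Pdgfra, the receptor for platelet-derived growth factor, was present in 18 of 25 and 33 of 51. All 4 genes of the rule were present in 15 Lgr5-high and 20 Lgr5-zero cells, and 19 Lgr5-zero cells met the rule with 2 of them.

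The mesenchymal label was read against genes that the rule did not use. In every Lgr5-high cell at least 3 of 18 further mesenchymal genes had more than 10 reads, against 42 of 51 Lgr5-zero cells, and in pools 3 to 5 every cell of both groups passed this mark. Twist1, a transcription factor of mesenchyme, was present in 21 Lgr5-high and 25 Lgr5-zero cells. The labels call the cells hepatoblasts, but none of the 12 hepatoblast markers reached 10 reads per 1000000 in either group. Their summed level was 14.5 in Lgr5-high and 8.34 in Lgr5-zero cells on that scale. The limit on Afp selects against hepatoblasts, so these low levels are in part set by the rule. No cell of either group had 3 markers of hepatoblasts, endothelium or leukocytes above 10 reads. The CD31 and CD45 gates of the sort select against endothelium and leukocytes. At least 3 erythroid genes were above 10 reads in 4 of 25 Lgr5-high and 24 of 51 Lgr5-zero cells, or 3 of 23 and 3 of 26 in pools 3 to 5. For muscle progenitor genes these counts were 8 and 7 cells, or 8 and 6 in pools 3 to 5.

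The library pool moved with the groups and with the number of genes seen. Pools 1 and 2 held 2 of 25 Lgr5-high but 25 of 51 Lgr5-zero cells. Lgr5-high cells made up 1 of 24 mesenchymal cells in pool 1, 1 of 9 in pool 2, 11 of 21 in pool 3, 8 of 27 in pool 4 and 4 of 15 in pool 5. The median cell gave reads on 7280 genes in the Lgr5-high and on 5554 in the Lgr5-zero group at like depths, with medians of 1256250 and 1226999 reads. Thinning each cell to 400000 reads left the medians at 6208 and 4589. Within pools 3, 4 and 5 the medians were 7496, 6847 and 7406.5 in Lgr5-high cells against 7718, 7133 and 6917 in Lgr5-zero cells. Pools and embryos cannot be told apart, since no label ties them. Values for pools 3 to 5 alone, with 23 Lgr5-high and 26 Lgr5-zero cells, therefore stand beside those of all pools. No pair of cells had identical counts.

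**Figure D1:**
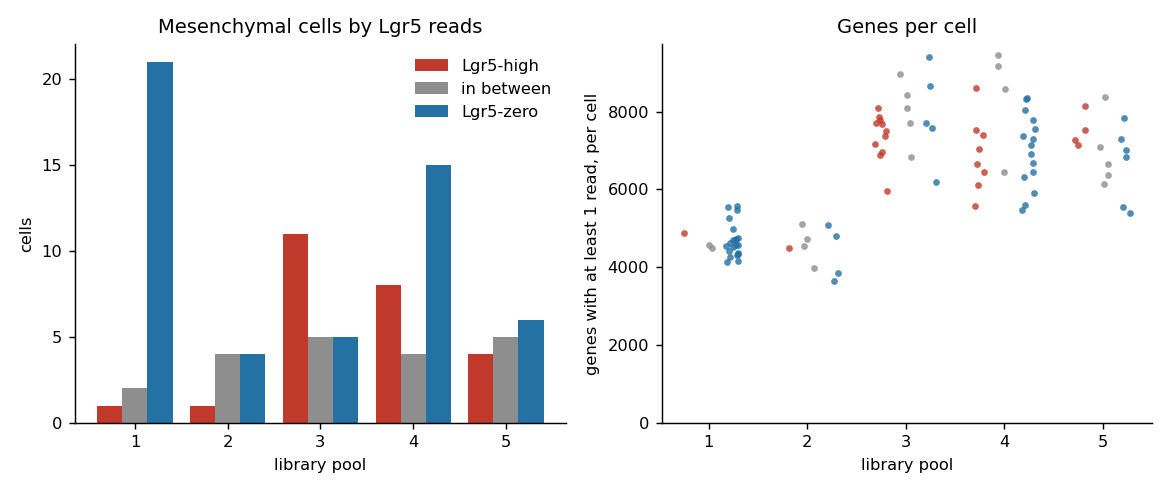
Left, number of mesenchymal cells of each Lgr5 class in each library pool. Right, genes with at least 1 read in each cell, 1 point per cell, by pool and class. Pool 1 holds 21 of the 51 Lgr5-zero cells and 1 Lgr5-high cell, and the highest cell of pools 1 and 2 had 5586 genes where the lowest of pools 3 to 5 had 5401.

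The level of a gene was its reads summed over the cells of a group per 1000000 summed reads (RPM), and groups were compared as the log2 ratio of (RPM + 1), Lgr5-high over Lgr5-zero. A gene was tested, that is entered the comparison, at 10 RPM or more in either group. It was called when the ratio was at least 2-fold, when its sign was the same in pools 3, 4 and 5, and when at least 25% of the cells of the higher group had more than 10 reads of it. Of 9933 genes tested, 363 (3.65%) were called higher in Lgr5-high cells, Lgr5 among them by construction, and 1.64% were called lower, 526 genes or 5.3% together. In pools 3 to 5 alone 411 of 10101 (4.07%) were called higher and 349 (3.46%) lower, 7.52% together, with 232 and 120 genes shared with the calls from all pools. The split between directions moved with the scaling: scran size factors gave 285 higher and 295 lower, and the difference of mean log2(RPM + 1) over cells gave 986 and 32. The median log2 ratio of all genes tested was 0.06 over all pools and 0.02 in pools 3 to 5, and it was -0.22 and 0.72 under those 2 scalings. The median gene called higher had more than 10 reads in 47.8% of Lgr5-high and 30.8% of Lgr5-zero cells of pools 3 to 5, and the median gene called lower in 39.1% and 53.8%. No error rate stands behind a call, and single-cell levels are uneven enough that 1 cell can carry much of a sum.

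**Figure D2:**
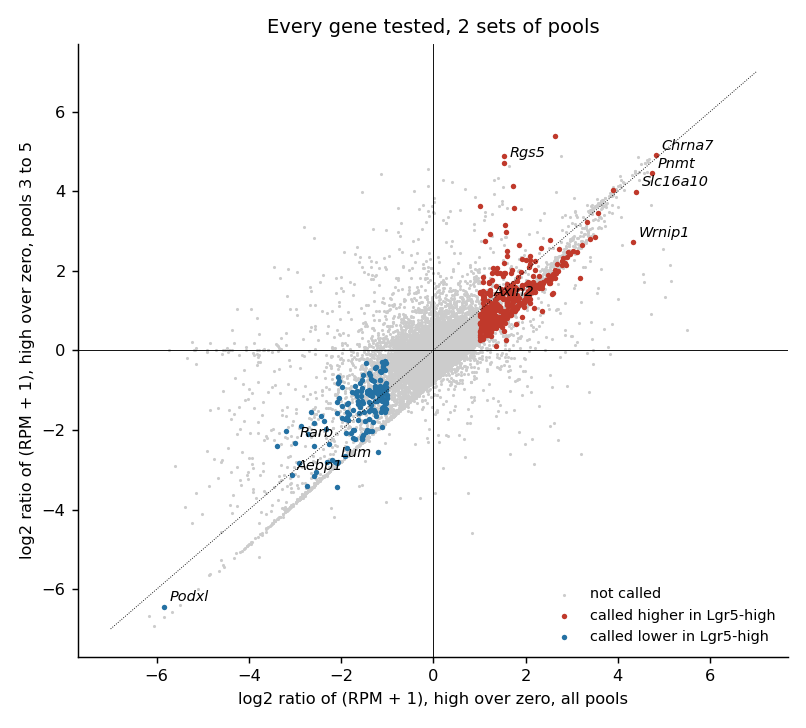
Each point is a gene at 10 RPM or more, without Lgr5, with its log2 ratio over all pools on the x axis and in pools 3 to 5 on the y axis; the dotted line marks equal values. Called genes lie on the same side in both, which the rule for a call nearly fixes. Podxl is the called gene farthest down at -5.84 and -6.44, and Chrna7 the one farthest right at 4.82 and 4.91.

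Of the gene lists used here, targets of Wnt signalling had the highest share called higher. Of 20 genes known as targets of beta-catenin, 12 were tested and 4 were called higher (Axin2, Dkk1, Ccnd1 and Myc) beside the 3.65% of all genes, with 0 called lower. The median log2 ratio of the 12 was 0.92 against 0.06 over all genes tested. In pools 3 to 5, 4 of 13 were called higher, namely Axin2, Dkk1, Ccnd1 and Nkd2, beside 4.07% of all genes. The median was 0.62 against 0.02 there, and Myc was not called. The sign of Nkd2 in pool 5, which its call needed, rests on 0.49 against 0 RPM. There 0 of 4 and 0 of 6 cells had more than 10 reads of Nkd2. With scran size factors 2 of the list were called higher over all pools. Targets were present above 10 reads in a median of 8 of the 20 per Lgr5-high cell and 3 per Lgr5-zero cell, and in 8 and 6 within pools 3 to 5.

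Promoter sequences of these genes, from 250 bases before to 50 after the annotated start in RefSeq on GRCm38.p6, were read for the core motif of the TCF/LEF factors that carry beta-catenin to DNA. The motif was searched on both strands as CTTTGAT, as CTTTGAA, as CTTTGTT and as CTTTGTA. The promoters of the 2 feedback genes of the pathway and of Rarb, the called gene with a well known element of its own, are shown. Capitals mark a TCF/LEF match in Dkk1 and, in Rarb, a pair of GTTCA letters spaced as in a retinoic acid response element, searched as GTTCA, 6 bases of any kind and GTTCA again on either strand. Each reads 5′ to 3′ on the strand of its gene.
Axin2 (chr11:108920099-108920398, plus strand): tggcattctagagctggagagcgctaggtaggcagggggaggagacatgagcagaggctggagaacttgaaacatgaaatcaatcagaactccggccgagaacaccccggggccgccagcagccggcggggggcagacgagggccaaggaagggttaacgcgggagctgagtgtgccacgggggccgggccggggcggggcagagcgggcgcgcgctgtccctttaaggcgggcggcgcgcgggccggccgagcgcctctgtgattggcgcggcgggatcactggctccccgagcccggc
Dkk1 (chr19:30549447-30549746, minus strand): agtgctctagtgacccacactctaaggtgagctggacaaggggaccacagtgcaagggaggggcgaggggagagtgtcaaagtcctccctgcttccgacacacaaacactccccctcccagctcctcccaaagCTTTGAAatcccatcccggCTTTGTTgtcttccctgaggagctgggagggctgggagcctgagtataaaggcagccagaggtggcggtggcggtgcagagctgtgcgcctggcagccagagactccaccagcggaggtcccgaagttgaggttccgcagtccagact
Rarb (chr14:16575427-16575726, minus strand): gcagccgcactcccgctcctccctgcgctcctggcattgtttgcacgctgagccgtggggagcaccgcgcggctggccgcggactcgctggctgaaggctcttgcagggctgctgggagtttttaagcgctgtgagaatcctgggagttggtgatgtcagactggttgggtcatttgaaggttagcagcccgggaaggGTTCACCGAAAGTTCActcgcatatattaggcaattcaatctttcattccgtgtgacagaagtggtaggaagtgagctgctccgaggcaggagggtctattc
Dkk1 held 2 TCF/LEF matches, which begin at positions -117 and -98 from the start, and Axin2 held 0 in this window. Over all 32851 promoters 16.9% held at least 1 match, against 39 of 342 entries (11.4%) of genes called higher and 10.4% of the entries of genes called lower. Of the 12 Wnt targets tested, 8 had an entry and 4 of these held a match. Ccnd1, Myc, Bambi and Znrf3 had none in the table. The GTTCA pair was present in 25 of all 32851 promoters and, among the entries of genes called lower, in that of Rarb alone.

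Axin2, which encodes a scaffold of the complex that destroys beta-catenin and is widely read as a pathway reporter, ran from 0 through a median of 15.8 to 472 RPM in Lgr5-high cells. In Lgr5-zero cells it ran from 0 through 1.05 to 213 RPM. The ranges overlapped widely. Axin2 was present in 16 of 25 Lgr5-high cells (64%, interval 42.5 to 82%) and 20 of 51 Lgr5-zero cells (39.2%, 25.8 to 53.9%). Within pools 3 to 5 these were 16 of 23 (69.6%, 47.1 to 86.8%) and 14 of 26 (53.8%, 33.4 to 73.4%), and in pool 4 the share was higher in Lgr5-zero cells, 10 of 15 against 4 of 8. The level of Axin2 was 75.5 RPM (exact Poisson interval 72.5 to 78.5) against 32.7 (31.2 to 34.1), a log2 ratio of 1.18. Within pools 3, 4 and 5 the ratio was 1.81, 0.60 and 3.30. In the cells in between Axin2 stood at 55.5 RPM.

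Dkk1, a secreted inhibitor that binds the Lrp co-receptors of Wnt, was present in 14 of 25 Lgr5-high and 10 of 51 Lgr5-zero cells, and in 12 of 23 and 8 of 26 in pools 3 to 5. It ran from 0 through 45.7 to 586 RPM in the former and from 0 through 0 to 421 RPM in the latter. The median Lgr5-zero cell thus gave no read of it, while a few were as high as Lgr5-high cells. The level was 137.1 RPM against 42.8, a log2 ratio of 1.66, and 29.8 RPM in the cells in between. The ratio was 6.24 in pool 3, where none of 5 Lgr5-zero cells had more than 10 reads, but 1.16 and 0.59 in pools 4 and 5.

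Ccnd1, the D-type cyclin that opens G1, stood at 100.8 RPM in Lgr5-high and 38.8 in Lgr5-zero cells, a log2 ratio of 1.36. It was present in 13 of 25 and 11 of 51 cells, or 13 of 23 and 9 of 26 in pools 3 to 5, and its median per cell was 39.4 and 0 RPM. The single highest cell, at 777 RPM, was an Lgr5-zero cell. The ratio was 3.17, 1.52 and 3.03 in pools 3, 4 and 5, and 1.97 over the 3 pools together. Myc, the growth-promoting transcription factor, had a log2 ratio of 1.27 over all pools but 0.64 in pools 3 to 5, where 13 of 23 and 13 of 26 cells had it.

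The remaining targets were not called over all pools. Nkd2, an inhibitor of Dishevelled, had a log2 ratio of 0.88 over all pools and 1.73 in pools 3 to 5. Lef1, a partner of beta-catenin, had 0.83 and 0.62, and Nkd1 had 0.76 and 0.38. Znrf3, the ligase that Lgr5 and R-spondin hold off, summed to 211.3 and 216.8 RPM over pools that went opposite ways, with 274 against 40.3 RPM in pool 3 and 198.7 against 344 in pool 4. It was present in 21 of 25 and 28 of 51 cells, and in 21 of 23 and 22 of 26 in pools 3 to 5. Sp5, a target that represses others, was lower at 17.2 against 24.9 RPM and was present in 5 and 3 cells.

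Single upstream members of the pathway were called, in lists too short to be read against the 3.65% of all genes called higher and 1.64% called lower. Of 11 Wnt receptors and co-receptors tested, 1 was called higher, Fzd1, at 202.8 against 89 RPM. Its log2 ratio of 1.18 was 0.38 in pools 3 to 5, and 1 Lgr5-high cell reached 2444 RPM. Of 5 Wnt ligands tested, none was called in either direction, and Wnt2, which is expressed in lung and liver mesenchyme, was at 118.3 and 133.5 RPM. Of 11 secreted or surface inhibitors tested Dkk1 alone was called. Of the other Lgr receptors, R-spondins and their ligases, 5 of 8 were tested and Rspo4 was called lower, at 48.1 against 134.9 RPM, with a log2 ratio of -1.47 that shrank to -0.32 in pools 3 to 5. Lgr4, the close relative of Lgr5, stood at 36.2 against 89.4 RPM and was present in 9 of 25 and 22 of 51 cells. Its log2 ratio of -1.28 was -1.29 in pools 3 to 5. Its ratio was -3.01 in pool 3 and 0.61 in pool 4, so it was not called.

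**Figure D3:**
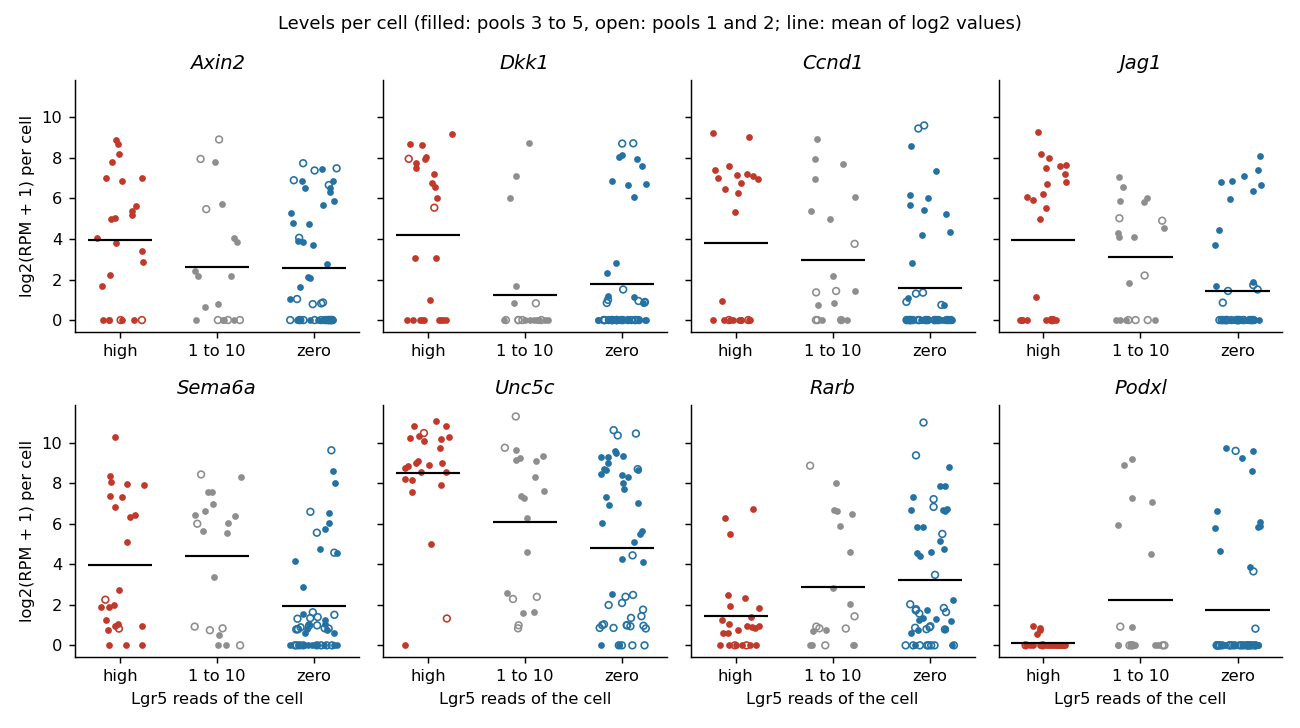
Level of 8 called genes in each cell as log2(RPM + 1), for Lgr5-high cells, cells with 1 to 10 Lgr5 reads and Lgr5-zero cells; filled points are pools 3 to 5, open points pools 1 and 2, and lines the mean of the log2 values. Lgr5-high and Lgr5-zero cells both reach down to 0 for every gene shown, and for Podxl all 25 Lgr5-high cells lie at or below 0.97 RPM.

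The guidance, Notch and patterning lists held 1 to 4 called genes each, all higher over all pools, beside 69% higher among all called genes. Of 44 guidance genes tested, 4 were called higher and 0 lower, with a median log2 ratio of 0.12 over all pools and -0.11 in pools 3 to 5, so the sign of the median turned, beside 3.65% and 1.64% of all genes. In pools 3 to 5, 3 of 43 were called higher and 1 lower, Sema3c, a secreted semaphorin, with a log2 ratio of -1.69 there and -1.61 over all pools. Unc5c, a netrin receptor, was present in 23 of 25 Lgr5-high cells (92%, interval 74 to 99%) against 28 of 51 (54.9%, 40.3 to 68.9%). The shares lay close in pools 3 to 5, at 22 of 23 (95.7%, 78.1 to 99.9%) and 23 of 26 (88.5%, 69.8 to 97.6%), and 5 of the 25 Lgr5-zero cells of pools 1 and 2 had it. Its median per cell was 504.7 RPM against 20.7, and 504.7 against 232 in pools 3 to 5. The level of Unc5c was 768 RPM in Lgr5-high cells, 385 in between and 245 in Lgr5-zero cells. Its log2 ratio of 1.65 was 3.24, 1.44 and 1.41 in pools 3, 4 and 5.

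Sema6a, a transmembrane semaphorin, stood at 148.8 against 34.1 RPM, a log2 ratio of 2.09, or 2.38 in pools 3 to 5. Its level in between was 80 RPM, and 1 Lgr5-high cell reached 1241 RPM. Ephb3, a receptor for ephrin-B ligands, had a log2 ratio of 2.3 and was present in 11 and 9 cells. Within pools 3, 4 and 5 Ephb3 stood at 54.8 against 3.36, 74.9 against 27.6 and 11.4 against 0 RPM. Ephb2, a related receptor, had 1.42 over all pools and 0.64 in pools 3 to 5, where it was not called.

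Jag1, a ligand of Notch receptors, was the called member of 7 Notch pathway genes tested, beside 3.65% of all genes called higher. It was present in 14 of 25 Lgr5-high cells and 10 of 51 Lgr5-zero cells, or 14 of 23 and 10 of 26 in pools 3 to 5, at 114.6 against 21.7 RPM over all pools. The median cell stood at 45.5 RPM in the first group and at 0 in the second, although single cells of the second reached 276 RPM. The log2 ratio of Jag1 was 2.35 over all pools and 1.58 in pools 3 to 5, with 1.33, 1.26 and 3.82 in the 3 pools. Hey2, a Notch target, was called in pools 3 to 5 alone, at 29 against 9.91 RPM.

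Irx5, a homeobox factor of limb and body wall, was the called member of 16 lateral plate and limb genes, beside 3.65% of all genes called higher. It stood at 63.3 against 12.2 RPM, a log2 ratio of 2.28. Within pools 3, 4 and 5 Irx5 stood at 61.7 against 31.4, 53.3 against 16.3 and 108.8 against 12.5 RPM. Hoxa2, an anterior Hox gene, was the called member of 9 Hox genes tested, with 1.21 over all pools and 1.09 in pools 3 to 5. Within pools 3 and 4 Hoxa2 stood closer, at 89.5 against 76.8 and 69.6 against 44.7 RPM. In pool 5 it was at 89.4 against 0.34 RPM, present in 1 of 4 and 0 of 6 cells. The posterior genes Hoxa9 and Hoxa10 went the other way, with 1 and 0 reads in all Lgr5-high cells, but they were present in 4 Lgr5-zero cells each and were not called. The limb, somite and Hox lists had medians of -0.17, 0.08 and -0.57, and 0.14, 0.28 and -0.35 in pools 3 to 5. Col4a2, a chain of basement membrane collagen, was higher at 51.2 against 11.2 RPM. Within pools 3, 4 and 5 it stood at 60.5 against 45.5, 24.1 against 12.4 and 76 against 21.5 RPM. Rgs5, a pericyte gene, was higher at 196.1 against 66.9 RPM, but it was present in 7 and 6 cells. Its median cell was at 0 in both groups, and it was not called in pools 3 to 5.

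At the other end Podxl, a sialomucin of mesothelium and of podocytes, had the lowest ratio of any called gene. All 25 Lgr5-high cells together gave 4 reads of it, and the highest of them stood at 0.97 RPM. The 51 Lgr5-zero cells gave 3912 reads and reached 856 RPM, with a median of 0. No Lgr5-high cell had more than 10 reads (0%, interval 0 to 13.7%), against 13 of 51 Lgr5-zero cells (25.5%, 14.3 to 39.6%) and 6 of 20 cells in between. The Podxl-positive Lgr5-zero cells were spread over pools 1, 3, 4 and 5 as 2, 4, 5 and 2 cells. In pools 3 to 5 the share was 0 of 23 against 11 of 26 (42.3%, 23.4 to 63.1%), and 6 of 14 in between. The log2 ratio was -7.42, -6.41 and -5.08 in pools 3, 4 and 5.

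Several other markers of mesothelium lay the same way but in fewer cells. Of 11 tested genes of mesothelium and septum transversum, 1 was called lower and 0 higher, beside 1.64% and 3.65% of all genes. The median log2 ratio was -3.17, or -3.99 in pools 3 to 5, where Krt19 was also called lower. Some of these genes, Podxl and Upk3b among them, reached 10 RPM in Lgr5-zero cells alone, and their entry by that limit lowers the median. With no minimum level, which also lets in members without reads, the median was -0.54. Without cells that had more than 10 Podxl reads it was -0.098. Krt19, a keratin, gave 4 reads over the Lgr5-high cells and was present in 8 Lgr5-zero cells. Upk3b, a uroplakin of mesothelium, gave 1 read and was present in 6. Wt1, a zinc finger factor of the mesothelium and its derivatives, was present in 2 of 25 and 7 of 51 cells, at 14.4 against 66 RPM. In pool 4 Wt1 stood at 41.6 against 57.1 RPM, and in pool 5 it went the other way, at 15.5 against 12 RPM. The 3 tested members above 0 were Gata4, Gata6 and Alcam, with log2 ratios of 0.61, 0.14 and 0.81. In pools 3 to 5 these were -0.0073, 0.048 and 0.17. Over all pools the summed level of the list was alike, at 983 RPM in Lgr5-high and 970 in Lgr5-zero cells. Alcam alone stood at 762 and 433 RPM there. In pools 3 to 5 the sum was 1052 RPM in Lgr5-high and 1508 RPM in Lgr5-zero cells.

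These genes met in the same cells. Of the 13 Lgr5-zero cells with Podxl, 7 also had Krt19, 6 Upk3b and 5 Wt1, whereas among the other 38 Lgr5-zero cells 1, 0 and 2 did. Col6a1 and Col6a3, chains of collagen VI, were present in 6 and 5 of the 13 and in 2 and 1 of the 38, but in 0 of 25 Lgr5-high cells. Dcn and Postn, matrix genes of fibroblasts, were present in 7 and 8 of the 13 and in 4 and 2 of the 38. Unlike the collagen VI chains they were also present in Lgr5-high cells, in 3 and 5 of 25. This split was chosen after the values were seen and describes these cells only. It also moved with the pool. Podxl was present in 11 of 26 Lgr5-zero cells of pools 3 to 5. In pools 1 and 2 it was present in 2 of 21 and 0 of 4. Cells of pools 1 and 2 gave reads on fewer genes at the median, and the split was not made within pools.

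**Figure D4:**
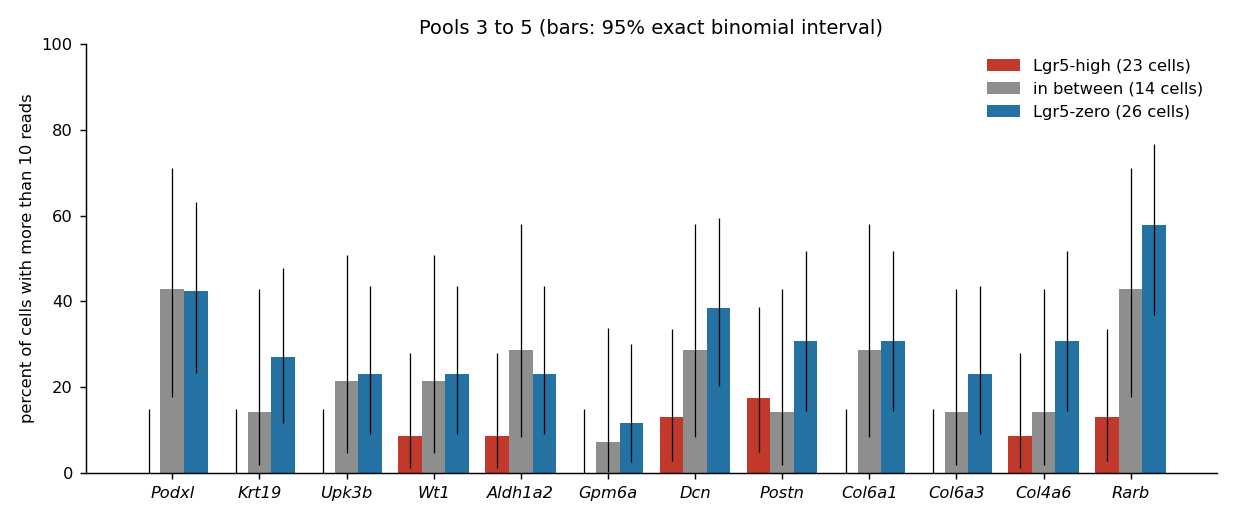
Percent of cells of pools 3 to 5 with more than 10 reads of each of 12 genes, in 23 Lgr5-high cells, 14 cells with 1 to 10 Lgr5 reads and 26 Lgr5-zero cells; lines are 95% exact binomial intervals, which cover counting error only. Podxl, Krt19, Upk3b, Gpm6a, Col6a1 and Col6a3 stand at 0 in Lgr5-high cells. The intervals of Lgr5-high and Lgr5-zero cells do not meet for Podxl and Rarb. Both genes are shown because they were called lower from these same cells, so this gap is a description and not a test.

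Matrix genes of fibroblasts differed by a few cells with very high levels. Lum, a small proteoglycan, was the called member of 15 further mesenchymal genes tested, beside 1.64% of all genes called lower. Lum stood at 207.8 against 919 RPM, a log2 ratio of -2.14. It was present in 13 of 25 and 15 of 51 cells, and in 13 of 23 and 13 of 26 in pools 3 to 5, and its median per cell over all pools was 9.19 against 1.35 RPM. The highest Lgr5-zero cell stood at 23787 RPM and the highest Lgr5-high cell at 1270. Without cells that had more than 10 Podxl reads the log2 ratio of Lum was 1.39, so its sign turned. Dcn and Postn had log2 ratios of -4.56 and -3.79 and were called lower in pools 3 to 5 alone. Pdgfrb, a receptor for platelet-derived growth factor, and Prrx2, a homeobox factor of mesenchyme, were called higher in pools 3 to 5 alone, where Pdgfrb turned from -0.67 to 1.53 and Prrx2 went from 0.16 to 1.06. Col5a1, a fibrillar collagen chain, was called lower at 35.5 against 121.6 RPM, and it was present in 10 of 25 and 21 of 51 cells. Of 21 further collagens tested, 1 was called higher and 1 lower, beside 3.65% and 1.64% of all genes, with a median of -0.19. In pools 3 to 5, 2 of 23 were called higher and 4 lower, beside 4.07% and 3.46%, with a median of -0.48.

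Rarb, a retinoic acid receptor whose gene is itself induced by retinoic acid and whose promoter is shown above, was called lower. It was present in 3 of 25 Lgr5-high cells (12%, interval 2.55 to 31.2%) and 21 of 51 Lgr5-zero cells (41.2%, 27.6 to 55.8%), and in 7 of 20 in between. Of the cells of pools 3 to 5, 3 of 23 and 15 of 26 had it. Its cells ran from 0 through 0.88 to 106.2 RPM in Lgr5-high and from 0 through 2.37 to 2039 RPM in Lgr5-zero cells. The level was 9.27 against 81.8 RPM, a log2 ratio of -3.01, with -2.79, -2.10 and -2.24 in pools 3, 4 and 5. Rarb was present in 8 of the 13 Podxl-positive and 13 of the other 38 Lgr5-zero cells, so it was not limited to the former. Of 11 retinoid genes tested Rarb alone was called, beside 5.3% of all genes in either direction. The median of the list was -1.09 over all pools and -0.87 in pools 3 to 5. Aldh1a2, which makes retinoic acid, was present in 2 of 25 and 6 of 51 cells and stood at 3.13 against 36.3 RPM. Crabp2, a carrier of retinoic acid, had a log2 ratio of -1.09 over all pools but 0.08 in pools 3 to 5.

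Beside 1.64% of all genes, 2 of 15 tested genes of the insulin-like growth factor and imprinted list were called lower. These were Dlk1 and Plagl1, both imprinted growth genes. Dlk1 was widely present, in 21 of 25 and 39 of 51 cells, with a median per cell of 97.1 and 114.1 RPM. Its level was 110.8 against 240 RPM and its log2 ratio -1.11, or -1.27 in pools 3 to 5. Plagl1 stood at 64.5 against 180.2 RPM, with -1.47 and -2.05. Grb10, Peg3 and Cdkn1c of the same list had log2 ratios of -0.62, 0.36 and -0.06 and were present in all 25 Lgr5-high cells.

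Calls among cell cycle genes were near the background, 1 of 25 tested beside 5.3% of all genes in either direction. Of 12 mitotic genes tested 0 were called in either direction by the rule, and their median log2 ratio was -0.64 over all pools and -0.24 in pools 3 to 5. Of 13 DNA replication genes Mcm4, a subunit of the replicative helicase, was called higher at 189.3 against 87.5 RPM, and the median was 0.73, or 0.21 in pools 3 to 5, where Mcm4 was not called. Of 68 ribosomal protein genes 1 was called, Rpl31, lower at a log2 ratio of -1.10 that was -0.40 in pools 3 to 5. It has close copies in the genome between which uniquely aligned reads could be lost, and whether this bears on the call was not tested. BMP and TGF-beta genes (22 tested), hedgehog genes (8), FGF ligands (3) and FGF receptors and targets (8) had 0 calls in either direction over all pools. Tgfb1, a ligand of the TGF-beta receptors, was called higher in pools 3 to 5, at 22.3 against 0.062 RPM, in 6 of 23 and 0 of 26 cells. Tgfbr3, a co-receptor of that family, and Spry2, an inhibitor of FGF signalling, were called lower there, with log2 ratios of -1.38 and -1.20 against -0.68 and -0.93 over all pools.

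**Figure D5:**
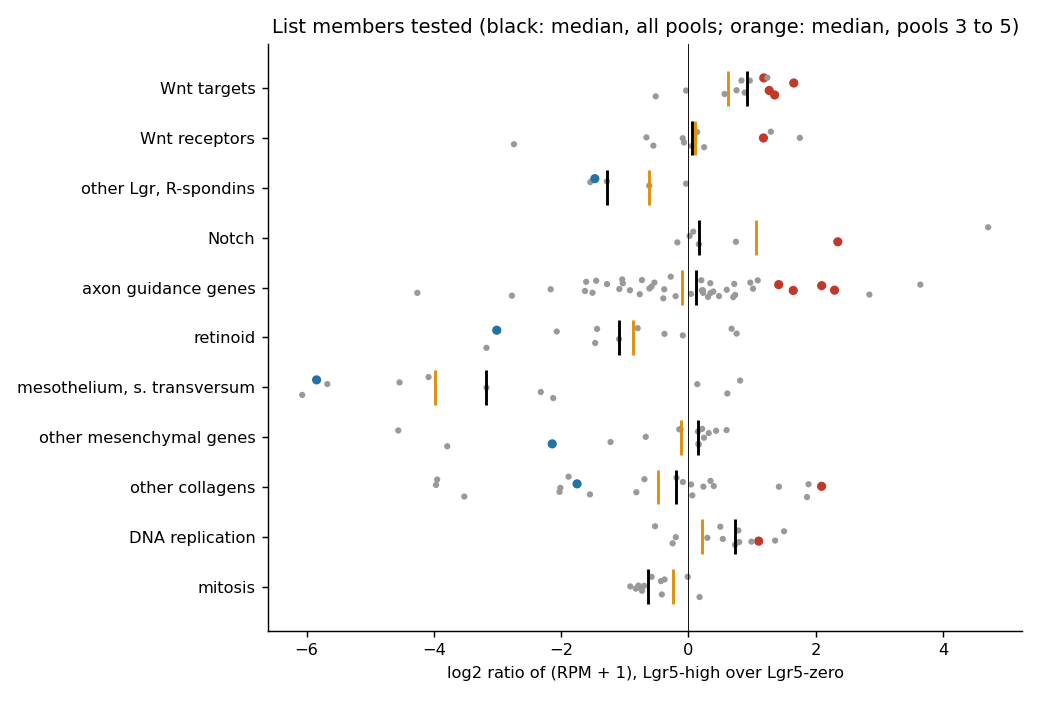
Log2 ratio of each tested member of 11 gene lists, with 1 point per gene (red called higher, blue called lower, grey not called); black bars are list medians over all pools and orange bars those in pools 3 to 5. Wnt targets have medians of 0.92 and 0.62 and mesothelial genes of -3.17 and -3.99, while guidance genes spread on both sides of 0. With no minimum level the mesothelial median over all pools was -0.54.

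The 12 protein-coding genes with the largest ratios formed no common list and were each present in a minority or a narrow majority of Lgr5-high cells. Chrna7, a subunit of the nicotinic acetylcholine receptor, was at 31.8 RPM in Lgr5-high and 0.16 in Lgr5-zero cells. It was present in 7 of 25 and 0 of 51 cells and at 7.86 RPM in between. Pnmt, the enzyme that makes adrenaline from noradrenaline, was at 40.3 against 0.55 RPM and present in 7 and 1 cells. Slc16a10, a transporter of aromatic amino acids, was at 44.1 against 1.13 RPM and present in 7 and 2 cells. For all 3 the median cell was at 0 in both groups. Of the other 9, Wrnip1, Atxn7l2, Atxn1, Phkg2, Timm29, 2010109A12Rik, 2510039O18Rik, Polrmt and Afg3l2, log2 ratios ran from 3.11 to 4.33 over all pools. Polrmt, the mitochondrial RNA polymerase, was the most widespread, in 15 of 25 and 5 of 51 cells, or 14 of 23 and 5 of 26 in pools 3 to 5, at 74.3 against 7.27 RPM. Its log2 ratio was 3.19 over all pools and 1.82 in pools 3 to 5, while that of Chrna7 was 4.82 and 4.91.

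At the lower end, after Podxl and Rarb, stood Zkscan1, Rbm45, Aebp1, Sphk2, Prorsd1, Tnip1, C2cd2, Spsb4, Lrch3 and Cdk11b, with log2 ratios from -3.40 to -2.59. Aebp1, a protein of the extracellular matrix and of adipocyte nuclei, was at 2.43 against 27.9 RPM and present in 3 of 25 and 13 of 51 cells. Zkscan1, a zinc finger factor, was at 5.59 against 68.4 RPM, and 1 Lgr5-zero cell reached 3629 RPM. Its log2 ratio of -3.40 was -2.41 in pools 3 to 5.

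Embryonic globin reads moved with the pool. Hba-x, an embryonic alpha globin, had more than 10 reads in 26 of 51 Lgr5-zero and 4 of 25 Lgr5-high cells, but 21 of the 26 were all of the Lgr5-zero cells of pool 1. In pools 3 to 5 Hba-x was at 5.97 RPM in Lgr5-zero and 1.62 RPM in Lgr5-high cells. Of 10 erythroid genes 5 were tested and 0 were called in either direction, beside 5.3% of all genes. Of the muscle progenitor markers 8 of 13 were tested and 0 called, and 2 Lgr5-high and 2 Lgr5-zero cells had both Pax3 and Lbx1, which together mark migrating muscle precursors.

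The E10.5 bulk sort gave 4 Lgr5-high mesenchymal cells by the same rule (3.45%, interval 0.95 to 8.59%), beside 16 cells in between and 96 Lgr5-zero cells. These are other cells than those above but come from the same library pools, and the labels do not say whether they shared embryos. All 4 Lgr5-high but 56 of the 96 Lgr5-zero cells of the bulk sort lay in pools 3 to 5. Of 362 genes called higher, 140 (38.7%) lay on the same side in the bulk cells, beside 37.4% of all genes tested. Of those called lower, 99 (60.7%) did, beside 62.3% of all genes tested. The calls as a set were therefore no more often on their side than other genes, in a comparison with 4 cells on one side. Podxl was at 0 RPM in the 4 cells and 38.8 RPM in the 96, and Axin2 at 32.9 and 21.1 RPM. Unc5c was at 368 and 628 RPM, Ccnd1 at 18.8 and 88.2, Jag1 at 26.7 and 49.8, and Rarb at 155.3 and 40.2, each on the side opposite to that in the GFP sort, and Dkk1 was at 0 and 27.4 RPM.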

How the data were processed

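Single cells of E10.5 and E13.5 liver were sequenced with Smart-seq2 and Nextera XT as single-end reads. The authors aligned them to GRCm38.p6 with STAR 2.6.0c and counted uniquely aligned reads per gene with featureCounts of Subread 1.6.2, and the deposited table holds these raw counts for 653 cells that passed their filters on mitochondrial reads, spike-ins, depth and genes. Of 54195 genes, 54042 were named from GENCODE M21, 25903 were listed at 0 in every cell, and 0 columns of cells were left unused. A second table of 1766 genes, corrected between batches, was not used here.

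Groups followed stage and sort in the labels (211 cells of the E10.5 Lgr5-GFP sort) and then the read limits of the report. Members and gene lists were chosen with earlier results of these data known. Reads were summed per group and given per 1000000 reads, with a pseudocount of 1 RPM, exact Poisson intervals for levels and Clopper-Pearson intervals for shares (95%). PCR reads without molecular identifiers are not independent molecules. Depth per mesenchymal cell was 463347 to 2279700 reads. Named genes are the 12 called protein-coding genes at each end, called list members and the cell type markers; others were chosen after their values were seen. Promoters were matched by symbol, and 34 of the 45 named called genes had an entry. Work was done in Python 3.11.15 (numpy 2.4.6, pandas 2.3.3, scipy 1.17.1) and scran 1.30.0 in R 4.3.3, and the calling step was tested on simulated data.

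The alternatives were other limits for Lgr5, for the mesenchymal genes and for Afp and Klf1, leaving out muscle-like or mesothelial cells, other ways to average and scale, thinning, other pseudocounts and minimum levels, pools with at least 5 cells of each group, leaving out the highest cell of each gene, and leaving out each pool. Pools 3 to 5 alone, and leaving out cells with Podxl, were added after seeing the data.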

Additional observations from a re-analysis of the deposited data

How the results depend on the processing

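No paired analysis was possible because each group is 1 sample of single cells and the labels number no replicates shared between groups. The library pools, which both groups share, entered instead through the mean of within-pool ratios. For 45 named genes under 23 alternatives, 10.4% of log2 ratios moved by more than the spread over pools on the same side, and 7 turned. The pseudocount, the minimum levels and the pool minimum cannot turn a sign, and the rule for a call nearly fixes it in pools 3 to 5, so the tally says little of stability. The 7 were Lrch3 with at least 1 Lgr5 read (0.17) and with 0 reads of Afp and Klf1 (1.30), Lum (0.98), Plagl1 (0.43) and Rspo4 (0.55) as a difference of mean log2(RPM + 1), and Lum (1.39) and Podxl (0.13) without cells with more than 10 Podxl reads, an alternative that removes Podxl by construction. The share of genes tested that was called moved far more than single genes. Against 3.65% called higher and 1.64% lower, at least 1 Lgr5 read gave 0.80% and 0.55%, more than 50 Lgr5 reads gave 5.52% and 3.02%, and 0 reads of Afp and Klf1, with 12 and 25 cells left, gave 15.5% and 5.58%. The difference of mean log2(RPM + 1) gave 9.97% and 0.32%, and no minimum level, which tests more genes, gave 0.67% and 0.30%. Leaving out cells with Podxl gave 6.23% higher, and leaving out the highest cell of each gene gave 5.70% higher and 0.95% lower. Called lower were 3.03% with at least 3 of the 4 mesenchymal genes, 3.02% with scran size factors as by the mean of within-pool ratios, and 3.46% in pools 3 to 5. Leaving out each pool gave 4.25 to 8.11% higher and 1.78 to 3.97% lower. Without pool 3 these were 6.47% and 3.97%, without pool 4 8.11% and 2.75%, and without pool 5 6.68% and 2.66%, with 1 pool fewer in which the sign had to agree, and without pool 1 they were 4.25% and 3.21%.

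The Wnt target median of 0.92 was 1.92 as a difference of mean log2(RPM + 1) and 0.57 to 1.15 without each pool. Targets called higher numbered 1 with at least 1 Lgr5 read, 7 with 0 reads of Afp and Klf1, 2 with scran size factors and 3 to 5 without each pool. The mesothelial median of -3.17 became 0.38 with at least 1 Lgr5 read and -0.098 without cells with more than 10 Podxl reads, and it was -0.43 on the mean log2 scale, -0.54 with no minimum level and -4.38 to -1.49 without each pool. The guidance median of 0.12 became -0.064 with at least 1 Lgr5 read, -0.12 with more than 50, -0.20 with 0 reads of Afp and Klf1, -0.27 with scran size factors, -0.039 by within-pool ratios, -0.059 after thinning, -0.14 with no minimum level, -0.11 in pools 3 to 5, 0.62 on the mean log2 scale and -0.13 to 0.16 without each pool. The collagen median of -0.19 was -0.68 without cells with Pax3 and Lbx1, -0.65 with scran size factors, -0.59 by within-pool ratios, 0.29 on the mean log2 scale, 0.18 without cells with Podxl, 0.076 without the highest cell of each gene and -1.02 to 0.27 without each pool, the highest value being that without pool 4. The DNA replication median of 0.73 was 0.30 with at least 3 of the 4 mesenchymal genes, 1.49 on the mean log2 scale, 0.43 with scran size factors, 0.080 by within-pool ratios, 0.21 in pools 3 to 5 and 0.24 to 1.05 without each pool. The mitotic median of -0.64 was -0.24 with at least 3 of the 4 mesenchymal genes, -0.35 with 0 reads of Afp and Klf1, -0.063 on the mean log2 scale, -0.37 by within-pool ratios, -0.24 in pools 3 to 5 and -0.81 to -0.26 without each pool. The difference in median genes per cell of 1726 was 156.5 in pools 3 to 5 and 365.5 to 2599 without each pool, from without pool 1 to without pool 4. Apart from what an alternative removes by construction, the cause of these shifts was not tested.

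Each group is 25 or 51 cells from an unknown number of embryos, so the intervals do not cover the spread between embryos. Fewer cells with a gene and fewer reads per cell were told apart only by the share of cells above 10 reads. At this depth, 0 reads in a cell do not show that a gene is silent in it.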

Other observations

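The 20 cells with 1 to 10 Lgr5 reads took no part in the calls, and their levels are set here beside those of the ends, which were not tested against them. For matrix and mesothelial genes they held high levels in a few cells. Dcn stood at 899 RPM in these cells, 15.8 in Lgr5-high and 396 in Lgr5-zero cells, and the highest cell of each class was at 13625, 228 and 8729 RPM. Upk3b stood at 167.4 RPM in between, with 1 read in Lgr5-high and 51.6 RPM in Lgr5-zero cells, and Aldh1a2 at 116.8, 3.13 and 36.3 RPM. For Jag1 the cells in between stood at 27.3 RPM, against 114.6 and 21.7, and for Dkk1 at 29.8 against 137.1 and 42.8. For Axin2, Ccnd1 and Unc5c they lay between the ends, at 55.5, 61.6 and 385 RPM, and Myc at 87.5 RPM was above both.

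Some genes stood far apart in level but in few cells, and were not called. Hey1, a Notch target, had a log2 ratio of 4.71 with 3 Lgr5-high and 2 Lgr5-zero cells above 10 reads. Pitx1, a factor of the hindlimb field, had -4.86 with 1 and 6 cells, and Hoxa10, a posterior Hox gene, was at 0 reads in Lgr5-high cells and present in 4 Lgr5-zero cells. Sfrp5, a secreted Wnt inhibitor, was present in 0 of 25 and 4 of 51 cells. These were chosen after their values were seen.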
